A study of Mus musculus with 6 samples.

Results

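Methylation of the paternally methylated imprinting control regions was examined in male germ cells of newborn mice that carry 2, 1 or 0 intact copies of Tex15. The members are 4 windows of the mouse genome (build mm9), the control regions of H19, Meg3, Rasgrf1 and Zdbf2, and were chosen by position. They held 194 of the 10025464 CpG cytosines in the deposited table, which lists each strand of a CpG on its own. Whole-genome bisulfite sequencing reads a methylated cytosine as C and an unmethylated one as T, and a methylation level here is the percent of calls read as C, summed over a window.

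The samples were 6 male pups at postnatal day 2.5, each 1 library. Tex15WT (pups 8 and 9) is wild type, Tex15HT (pups 7 and 18) heterozygous and Tex15KO (pups 3 and 16) homozygous for the disrupted Tex15 gene, and Tex15WT and Tex15HT together are called the 4 controls. All pups came from matings of heterozygous parents on a mixed strain background. In every group the germ cells were sorted by the green fluorescence of an Oct4-GFP reporter, which marks germ cells in the newborn testis, and any other cells that pass the sort stay in the sample. The labels do not describe the Tex15 allele or say which pups were littermates.

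An imprinting control region carries DNA methylation on a single parental copy, and this mark decides which parental copy of nearby genes is expressed. In male germ cells the marks inherited from both parents are erased in the embryo. The paternal marks of H19, Meg3, Rasgrf1 and Zdbf2 are then laid down on both copies in prospermatogonia before birth, while the regions that are methylated in oocytes stay free of methylation. TEX15 is a germ cell protein that acts with the PIWI pathway, which uses small RNAs to direct methylation to retrotransposons, and methylation of the Rasgrf1 region in male germ cells is known to draw on that pathway.

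Promoters of genes tied to these regions were read as sequence outside the paternal windows. They are given as the 250 bases before the RefSeq start (GRCm38.p6), 5′ to 3′ on the strand of the gene, with those CpGs in capitals that had calls in the table. Each was placed in mm9 by the spacing of its CpGs alone. Meg3, a long noncoding RNA of the Dlk1-Dio3 cluster, and Igf2, the growth factor gene that shares the H19 control region, are governed by strongly methylated windows. The Zdbf2 promoter is that of a long transcript of the gene. The Peg3 promoter, in a maternally methylated region, is shown beside them.
Meg3 promoter: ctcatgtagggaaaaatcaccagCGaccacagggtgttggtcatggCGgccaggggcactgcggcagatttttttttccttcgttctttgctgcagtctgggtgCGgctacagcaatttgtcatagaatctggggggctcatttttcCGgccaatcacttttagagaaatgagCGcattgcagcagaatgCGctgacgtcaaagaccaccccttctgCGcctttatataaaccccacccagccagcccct
Igf2 promoter: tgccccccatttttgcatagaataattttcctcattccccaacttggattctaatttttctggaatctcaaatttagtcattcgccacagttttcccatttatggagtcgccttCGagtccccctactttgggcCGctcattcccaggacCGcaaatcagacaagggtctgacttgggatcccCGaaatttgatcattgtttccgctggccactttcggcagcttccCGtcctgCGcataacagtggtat
Zdbf2 promoter: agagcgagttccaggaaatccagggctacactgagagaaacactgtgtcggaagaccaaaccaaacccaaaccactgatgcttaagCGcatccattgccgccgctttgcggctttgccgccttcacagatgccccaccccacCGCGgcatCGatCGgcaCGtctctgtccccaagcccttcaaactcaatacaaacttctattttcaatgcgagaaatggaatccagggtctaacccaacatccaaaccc
Peg3 promoter: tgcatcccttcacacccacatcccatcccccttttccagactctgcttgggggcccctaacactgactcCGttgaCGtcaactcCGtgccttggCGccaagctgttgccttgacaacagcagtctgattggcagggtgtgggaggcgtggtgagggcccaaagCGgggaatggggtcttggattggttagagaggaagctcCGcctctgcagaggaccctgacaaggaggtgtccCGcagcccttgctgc

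These promoters had few methylated calls. At the Meg3 promoter (chromosome 12, 110778979 to 110779174, with 7 of 13 CpGs matched) levels were 10.5% and 0% in the wild-type pups 8 and 9, 14.3% and 0% in the heterozygous pups 7 and 18, and 5.41% in Tex15KO 16, on 13 to 37 calls. The Igf2 promoter (chromosome 7, 149847144 to 149847312, with 10 of 14 CpGs matched) had 0% in 4 samples and 1.49% in Tex15WT 9, on 34 to 77 calls. Tex15KO 3 had 0 calls at both. At the Zdbf2 promoter (chromosome 1, 63246769 to 63246841, with 6 of 15 CpGs matched) the level was 18.2% of 22 calls in Tex15WT 8, 1.25% of 80 calls in Tex15KO 3 and 0% in the other samples, on 5 to 27 calls. The Peg3 promoter lay between 0 and 9.33% in the 5 samples with calls. The Meg3 and Zdbf2 placements rest on few CpGs: the next best place matched 4 CpGs in each case.

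Between 27495658 and 52935635 calls per sample covered the table. The library of Tex15KO 3 stood apart before any result. It lacked calls at 74.4% of the cytosines, the other 5 samples at 1.71 to 10.2%, and its covered cytosines had a median of 8 calls against 2 to 4. In the 4 windows it read 59 of the 194 cytosines, against 162 to 191 in the others. Some differences are therefore also given without it, while group means and most test results include both Tex15KO pups. Intervals below are 95% Wilson intervals, and they cover counting error only, because PCR copies carry no molecular identifiers and may count 1 molecule more than once.

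The H19 control region lies between H19, a noncoding RNA, and Igf2, and in body cells it blocks Igf2 on the unmethylated maternal copy by binding the insulator protein CTCF. Its window (chromosome 7, 149766000 to 149768500) held 23 cytosines of 22 CpGs. Methylation was 97.8% and 60% in the wild-type pups 8 and 9, 89.5% and 100% in the heterozygous pups 7 and 18, and 96.9% and 92.6% in the Tex15KO pups 3 and 16, on 38 to 160 calls. By summed calls both Tex15KO samples were thus highly methylated, and the low sample was a wild type, with an interval of 45.5 to 73.0%. Tex15KO 3, however, read 11 of the 23 cytosines, and 121 of its 160 calls fell within a run of 6 neighbouring cytosines. As a mean over cytosines Tex15KO 3 had 80.7% and Tex15KO 16 89.5%, against 57.5 to 100% in the controls, Tex15WT 9 being the lowest.

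The low level of Tex15WT 9 came mostly from a short run. At 6 neighbouring minus-strand cytosines (149767926 to 149767992, chosen after a look at their values) 1 of 13 calls was methylated in Tex15WT 9, on 2 to 3 calls per cytosine. The same cytosines had 10 of 10 methylated calls in Tex15WT 8, 26 of 26 in Tex15HT 18, 118 of 121 in Tex15KO 3 and 15 of 17 in Tex15KO 16, while Tex15HT 7 had 0 calls. Outside the run Tex15WT 9 lay at 81.2%, still the lowest of the 6 samples, which otherwise lay between 89.5 and 100%.

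The Meg3 window (chromosome 12, 110763000 to 110769500), known as the intergenic control region of the Dlk1-Dio3 cluster, governs the noncoding RNA Meg3 and the protein-coding gene Dlk1 in opposite ways. It held 57 cytosines of 48 CpGs and had the narrowest range of levels over the pups. Levels were 91.4% and 89.5% in the wild-type pups 8 and 9, 98.0% and 92.4% in the heterozygous pups 7 and 18, and 97.5% and 91.9% in the Tex15KO pups 3 and 16, on 100 to 274 calls. Of the covered cytosines, 43 of 52 in Tex15WT 9 and 44 of 55 in Tex15KO 16 had methylated calls only. Tex15KO 3 read 21 of the 57, all on the plus strand.

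The Rasgrf1 window (chromosome 9, 89766000 to 89775000) controls Rasgrf1, a Ras exchange factor gene expressed from the paternal copy in the brain. It held 47 cytosines of 43 CpGs, the lowest CpG density of the windows at 4.78 per kb. Levels were 89.1% and 72.9% in the wild-type pups 8 and 9, 83.2% and 78.6% in the heterozygous pups 7 and 18, and 100% and 69.05% in the Tex15KO pups 3 and 16. The Tex15KO pups were thus the highest and the lowest of the 6. The value of Tex15KO 3 rests on 75 calls at 8 cytosines, and that of Tex15KO 16 on 168 calls at all 47.

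The Zdbf2 window (chromosome 1, 63304000 to 63311500) governs Zdbf2, a zinc finger gene expressed from the paternal copy. It held 67 cytosines of 59 CpGs and had the lowest level of the windows in 5 samples, the exception being H19 in Tex15WT 9. Levels were 61.8% and 66.5% in the wild-type pups 8 and 9, 69.2% and 63.9% in the heterozygous pups 7 and 18, and 64.8% and 60.2% in the Tex15KO pups 3 and 16, on 136 to 249 calls. The genotypes overlapped.

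**Figure D1:**
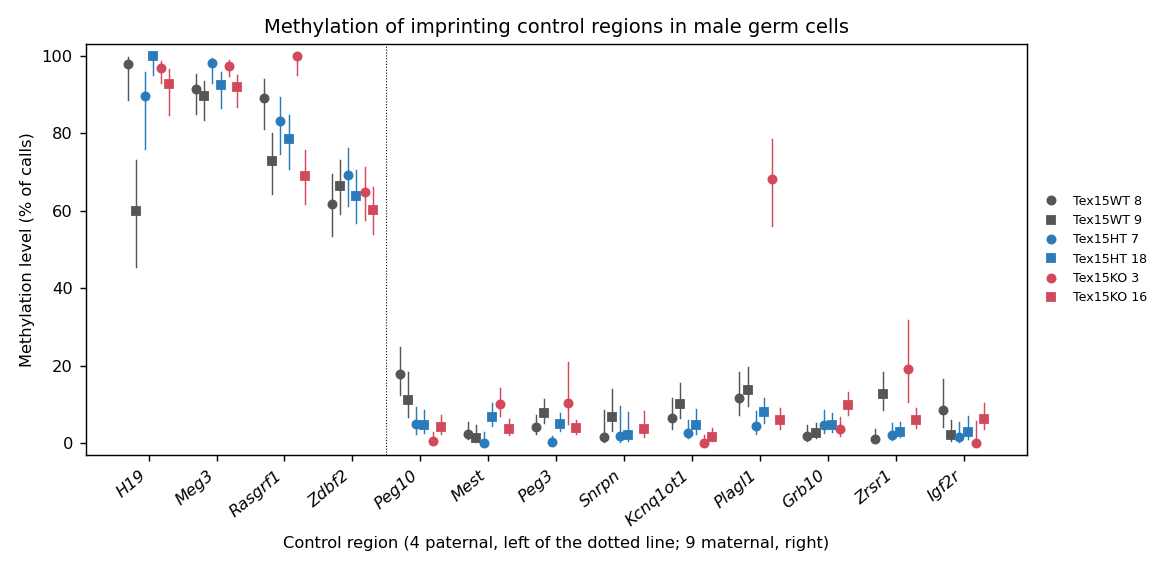
Methylation level (percent of calls, y axis) of the 4 paternal control regions and, right of the dotted line, 9 maternally methylated regions in each pup; symbols are pups, colours genotypes and bars 95% Wilson intervals. The paternal regions lie at 60% or higher in every pup, and the maternal regions below 20% except Plagl1 in Tex15KO 3 at 68.2%.

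By genotype, H19 had a mean of 78.9% ± 26.7 in the wild types, 94.7% ± 7.44 in the heterozygotes and 94.7% ± 3.03 in the Tex15KO pups (SD, n = 2 pups each, as in the following values). The means of Meg3 were 90.4% ± 1.32, 95.2% ± 3.98 and 94.7% ± 3.92 in the same order. Rasgrf1 had 81.0% ± 11.5, 80.9% ± 3.21 and 84.5% ± 21.9, and Zdbf2 had 64.1% ± 3.33, 66.6% ± 3.75 and 62.5% ± 3.25. The Tex15KO mean lay below the wild-type mean in Zdbf2 only, by less than the SD of either group, and the Tex15KO pups of Rasgrf1 lay on either side of all 4 controls. Zdbf2 lay below Meg3 and Rasgrf1 in every pup, whereas H19, Meg3 and Rasgrf1 had no order common to all pups.

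Tex15KO was first compared with Tex15WT, to ask whether the paternal marks depend on Tex15. The difference was 15.8 points in H19, with single pups between -5.19 and 36.9 points apart (two-sided exact permutation test over pups, p = 1). It was 3.52 points in Rasgrf1 (-20.1 to 27.1, exact permutation p = 1) and -1.58 points in Zdbf2 (-6.24 to 3.07, exact permutation p = 0.667). In Meg3 both Tex15KO pups lay above both Tex15WT pups, by 4.23 points on average (0.528 to 7.94, exact permutation p = 0.333). That p is the smallest that 2 pups against 2 can give, so the test cannot reach 0.05. In 21.6% of all 1 kb tiles of the genome both Tex15KO samples likewise lay above both Tex15WT samples, and the median tile differed by 2.24 points.

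In the fit over the genome, which used edgeR's quasi-likelihood test with the windows as added rows beside 330110 tiles, the adjusted p was 0.998 for H19, Meg3 and Rasgrf1 and 1 for Zdbf2. The fit leaves wide room for differences in both directions. On the log2 scale, the odds of methylation in Tex15KO over Tex15WT had approximate 95% intervals of -1.54 to 5.24 in H19, -1.49 to 3.68 in Meg3, -2.01 to 4.16 in Rasgrf1 and -2.47 to 2.27 in Zdbf2. Of the 10 tiles within the windows that had enough calls, edgeR called 0, against 0.00969% of all tiles, and limma 0, against 0.0966%. At an unadjusted p under 0.05, edgeR found 0 of the 10 as well, against 2.71% of all tiles. These values do not show that the windows are alike in the genotypes.

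Leaving out single pups turned the direction in H19, Rasgrf1 and Zdbf2. Without Tex15WT 9 the H19 difference was -3.04 points, and without Tex15WT 8 it was 34.7. Fisher's exact test on the pooled calls, which counts calls and not pups, gave H19 an adjusted p of 0.000639 over all tiles, and called 9.95% of all tiles. In Rasgrf1 the difference was -11.96 points without Tex15KO 3 and 18.99 points without Tex15KO 16. In the latter case edgeR called Rasgrf1 higher in Tex15KO (adjusted p 0.0366), on the 8 cytosines of Tex15KO 3 alone, and 4.76% of all tiles were then called. Without Tex15KO 3 edgeR gave Rasgrf1 an adjusted p of 1 (unadjusted 0.327). Without Tex15WT 9 the Rasgrf1 difference was -4.61 points. Zdbf2 lay 0.773 points higher in Tex15KO without Tex15WT 9 and 0.714 points higher without Tex15KO 16. The Meg3 difference stayed between 1.46 and 7 points with any 1 pup of the compared groups left out. Without Tex15KO 3 the differences were 13.7 points in H19, 1.46 in Meg3 and -3.88 in Zdbf2.

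**Figure D2:**
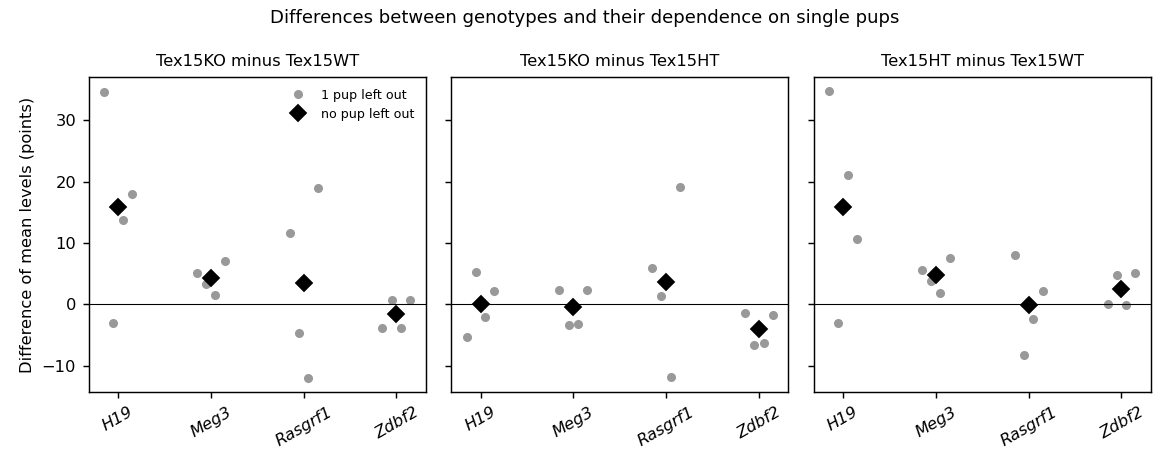
Differences of mean methylation level in points (y axis) between genotypes for the 4 windows; diamonds use every pup and grey dots leave out 1 pup of the compared groups. In the panel of Tex15KO minus Tex15WT the H19 dots run from -3.04 to 34.7 and the Rasgrf1 dots from -11.96 to 18.99.

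Against the heterozygous pups, Tex15KO differed by -0.00305 points in H19, -0.507 in Meg3, 3.63 in Rasgrf1 and -4.05 in Zdbf2, and the groups overlapped in all 4. The exact permutation p was between 0.667 and 1, and the edgeR adjusted p was 1 for each. None of the 10 tiles was called by edgeR, by limma or with Fisher's test (these called 0.00576%, 0.0627% and 8.14% of all tiles), and 0 of the 10 had an unadjusted edgeR p under 0.05, against 2.21% of all tiles. Without Tex15KO 16 the Rasgrf1 difference was 19.1 points (edgeR adjusted p 0.0311), and without Tex15KO 3 it was -11.9 points. This comparison and the former share the Tex15KO pups, so they are not independent.

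Between the control groups, Tex15HT exceeded Tex15WT by 15.9 points in H19, 4.74 in Meg3 and 2.46 in Zdbf2 and differed by -0.109 in Rasgrf1. Only in Meg3 did both heterozygous pups lie above both Tex15WT pups (0.987 to 8.49 points, exact permutation p = 0.333), as they did in 18% of all tiles. EdgeR's adjusted p was 1 for all 4 windows, and 0 of the 10 tiles were called, against 0.00121% of all tiles (limma called 0 of the 10 and 0.0% of all tiles), with 0 of the 10 at an unadjusted edgeR p under 0.05, against 0.537% of all tiles. The H19 difference between the wild-type and heterozygous pups was as large as that between wild type and Tex15KO, since both contain Tex15WT 9, and without that pup it was -3.04 points. Set against all 4 controls, Tex15KO differed by 7.92 points in H19, 1.86 in Meg3, 3.57 in Rasgrf1 and -2.81 in Zdbf2. Each window overlapped with the controls, the edgeR adjusted p was 1, and 0.0385% of all tiles were called.

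Within the windows methylation was not even, and the largest departures were in Zdbf2 and Rasgrf1. In Zdbf2 a stretch near the centre of the window (63307554 to 63308372, 17 cytosines of 13 CpGs) was low in every pup. Its level was 19.5% and 17.9% in the wild-type pups 8 and 9, 10.0% and 9.52% in the heterozygous pups 7 and 18, and 0% and 14.9% in the Tex15KO pups 3 and 16, on 28 to 74 calls. The 0 methylated of 39 calls in Tex15KO 3 allow a level of up to 8.97% by the Wilson interval. The rest of the window lay between 75.7 and 85.0% in the 6 pups, with means of 77.8% ± 3.06 for Tex15WT, 82.5% ± 3.40 for Tex15HT and 81.0% ± 2.18 for Tex15KO. The low level of the whole Zdbf2 window in the genotypes is therefore the sum of a methylated and a nearly unmethylated part, a split made after the values were seen.

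**Figure D3:**
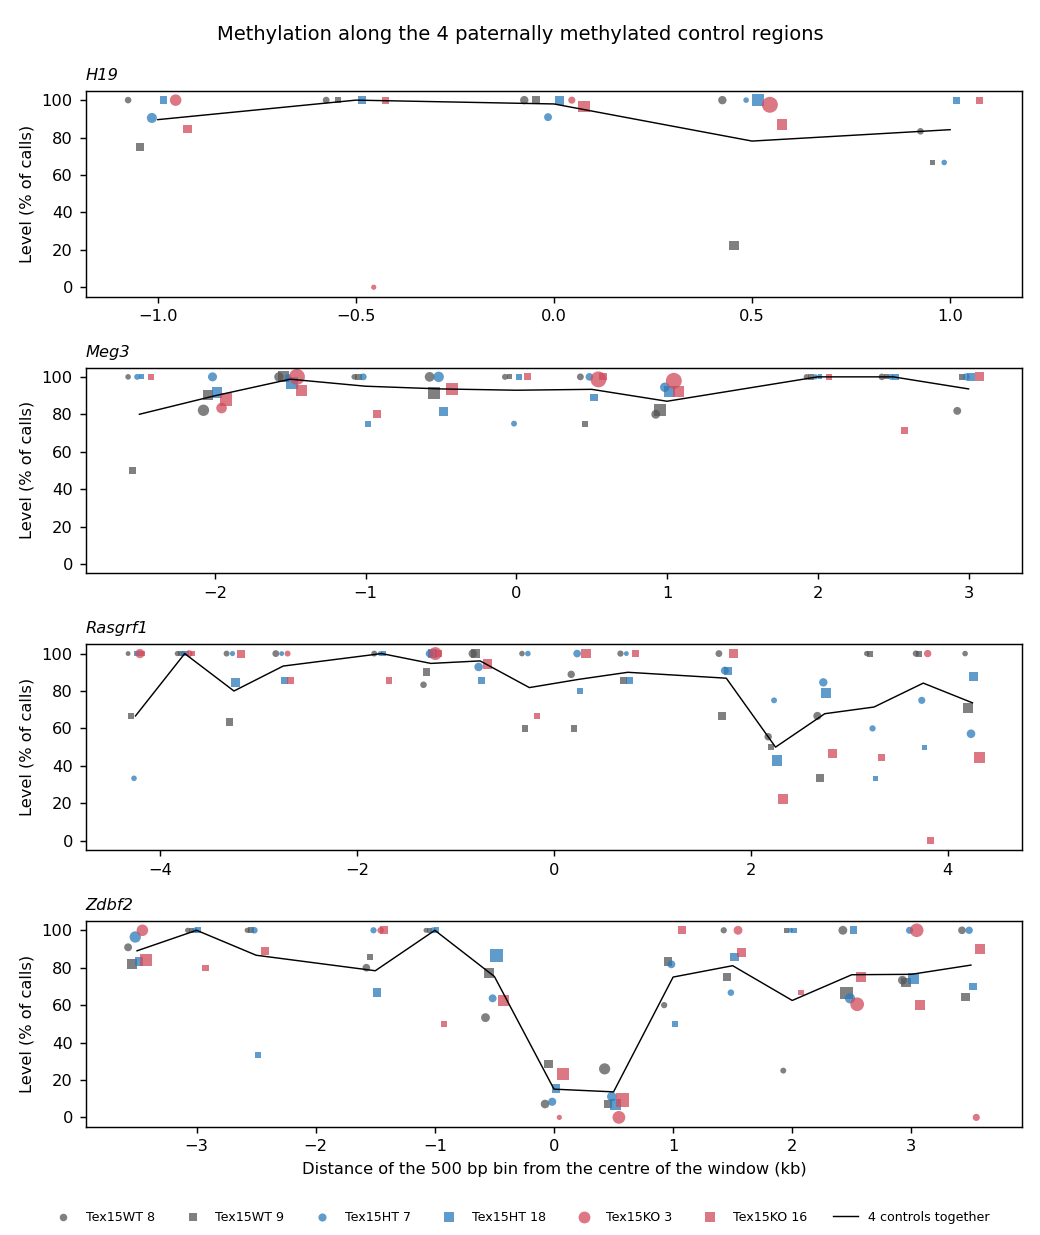
Methylation level (percent of calls, y axis) in 500 bp bins along each paternal window, against the distance of the bin from the centre of the window in kb; symbols are pups, larger symbols have more calls, and the black line is the 4 controls together. Zdbf2 drops to below 20% in its centre in the controls, and in Rasgrf1 the squares of Tex15KO 16 lie below the control line towards the right end.

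In Rasgrf1 the window fell into a highly methylated first part and a less methylated last part, also divided after the values were seen. In the first part (89766472 to 89772438, 27 cytosines) levels were 96.7% and 79.4% in the wild-type pups 8 and 9, 93.0% and 90.0% in the heterozygous pups 7 and 18, and 100% and 95.7% in the Tex15KO pups 3 and 16. Both Tex15KO pups lay within or above the range of the controls, which averaged 89.8% ± 7.44 (n = 4). In the last part (89772876 to 89774763, 20 cytosines of 17 CpGs) the controls lay at 74.2%, 64.0%, 70.5% and 65.6%, in the same order, with a mean of 68.6% ± 4.66. Tex15KO 16 was lower there, with 36.0% of 75 calls (interval 26.1 to 47.3%), while the lowest bound of a control was 50.1%. Tex15KO 3 had 9 calls in the last part, all methylated and all at 1 cytosine.

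The lower level of Tex15KO 16 was spread over the cytosines of the last part. It lay below the 4 pooled controls at 16 of 20 cytosines, above them at 4 and level with them at 0. Single control pups lay below the other 3 at 4 of 13 cytosines (Tex15WT 8), 6 of 18 (Tex15WT 9), 8 of 16 (Tex15HT 7) and 5 of 19 (Tex15HT 18). They were level with them at 2 to 4. These counts describe a part chosen after its values were seen. Neighbouring cytosines of 1 pup can share reads and are not replicates. At the 6 cytosines read in all samples but Tex15KO 3 it had 36.4% of 22 calls, against 53.3 to 80.0% in the controls. In the first part it lay below the pooled controls at 4 of 27 cytosines and above them at 14. By tile, 89774001 to 89775000 had 36.4% of 33 calls in Tex15KO 16 and 63.6 to 100% in the controls. Tex15WT 8, with 8 calls, and Tex15KO 3, with 100% of 9 calls, had too few there for the fit.

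Over both pups, Tex15KO had a mean of 68.0% ± 45.2 in the last part (SD, n = 2), close to that of the controls and with the single cytosine of Tex15KO 3 counted as a full value. No test over pups was made, because the window was divided after its values were seen. With Tex15KO 3 left out, 2 tiles that overlap the last part could be fitted, and the single Tex15KO pup was then assumed to vary like the other groups. For the tile 89772001 to 89773000 edgeR gave an unadjusted p of 0.742, and for 89773001 to 89774000 one of 0.359, in Tex15KO against Tex15WT (adjusted p 1 for both). In the 10 kb below the window Tex15KO 16 had 57.8% and Tex15KO 3 47.2%, against 64.1 to 73.5% in the controls. In the 10 kb above it they had 41.5% and 68.7%, against 43.7 to 52.0%. Both Tex15KO pups thus lay below the controls on the lower side, and on opposite sides of them above the window. On the lower side the value of Tex15KO 3 rests on 36 calls. In 4.32% of all 1 kb tiles of the genome both Tex15KO samples likewise lay below all 4 controls. A mean over bulk cells cannot tell apart a loss in some cells from a partial loss in all of them, or from other cells in the sort.

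**Figure D4:**
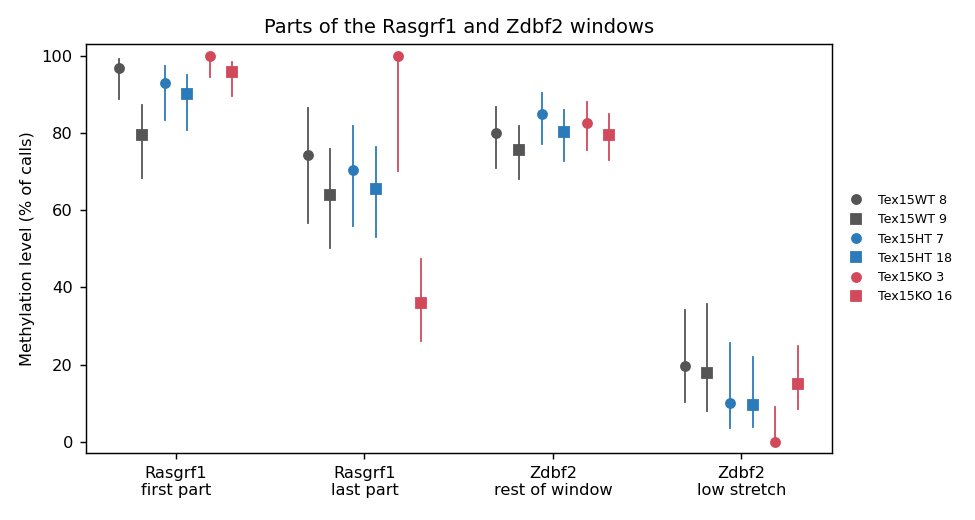
Methylation level (percent of calls, y axis) of the 2 parts of the Rasgrf1 window and of the Zdbf2 window in each pup, with 95% Wilson intervals as bars. In the last part of Rasgrf1 Tex15KO 16 lies at 36.0% and the 4 controls between 64.0 and 74.2%, and the low stretch of Zdbf2 is below 20% in every pup.

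Of the tiles within the windows, those with enough calls for the fit covered H19, Meg3 and Zdbf2 more fully than Rasgrf1. In H19 the controls averaged 92.6% ± 9.54 at 149766001 to 149767000, the highest tile, and 85.2% ± 25.0 at 149767001 to 149768000, the lowest, where Tex15WT 9 had 48.1%. In Meg3 they averaged 94.8% ± 4.59 at 110764001 to 110765000 and 87.2% ± 7.09 at 110767001 to 110768000 (SD, n = 4 controls). Rasgrf1 had a single such tile, 89769001 to 89770000 in the first part of its window, which shows nothing of the last part. It lay at 95.4% ± 0.699 in the controls, 100% in Tex15KO 3 and 95.8% in Tex15KO 16. In Zdbf2 the means of the controls were 89.8% ± 6.07 at 63304001 to 63305000 and 30.9% ± 13.3 at 63308001 to 63309000, a tile in which the low stretch ends. Calls in these tiles came under alternatives alone. Fisher's test on pooled calls called the H19 tile at 149767001 higher in Tex15KO and in Tex15HT than in Tex15WT (adjusted p 0.000333 and 0.0282), and the Meg3 tile at 110767001 higher in Tex15KO than in Tex15WT (0.0272). These are 2 of the 10 tiles for Tex15KO, against 9.95% of all tiles, and 1 of the 10 for Tex15HT, against 0.583% of all tiles. In the Zdbf2 tile at 63308001 Tex15KO 3 had 0% of 37 calls, all of them in the low stretch. The wild-type pups 8 and 9, at 31.25% and 42.3%, also read methylated cytosines of the tile beyond that stretch. Without Tex15KO 16, edgeR called this tile lower in Tex15KO than in Tex15WT, and so partly on different cytosines. This is 1 of the 10 tiles, against 4.76% of all tiles called without that pup.

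The regions beside the windows differed among the 4 loci. In the 5 samples other than Tex15KO 3, the 10 kb above the H19 window lay at 90.2 to 94.95% and the 10 kb below it at 56.6 to 73.2%. Below the Meg3 window the level was 87.1 to 92.6%, and above it, towards the Meg3 promoter, 54.9 to 63.1%. The flanks of Zdbf2 were lower than its window in each of these pups, at 33.1 to 43.0% below and 29.3 to 38.2% above. The Rasgrf1 window too lay above both of its flanks in each of the 5 pups, which had 57.8 to 73.5% below it and 41.5 to 52.0% above it. The Zdbf2 and Rasgrf1 windows thus lay above their surroundings on both sides, while the Meg3 and H19 windows continued into methylated sequence on a single side. In Tex15KO 3 the flanks lay outside these ranges in 7 of 8 cases, from 21.8% below H19 to 100% above it, and this pup read other cytosines there.

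Both strands of a window carried the mark. Over all samples, the minus and plus strands had 90.8 and 95.7% in H19, 93.6 and 93.9% in Meg3, 75.3 and 84.0% in Rasgrf1 and 64.3 and 63.7% in Zdbf2. Only in Rasgrf1 did the intervals of the strands not meet (70.4 to 79.6% and 79.7 to 87.4%). These intervals pool the calls of all pups, and only 4 Rasgrf1 CpGs had both strands in the table. The strands were thus read mostly at different positions, and a difference between strands was not tested. Where both strands of 1 CpG were read in the same pup, they lay on the same side of 50% in 33 of 36 cases in Zdbf2, 28 of 38 in Meg3, 10 of 17 in Rasgrf1 and 4 of 5 in H19.

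Levels like those of the windows were common in the genome of these cells. The median tile lay at 86.7 to 91.7% in the 5 samples other than Tex15KO 3 and at 100% in that one. By the share of tiles with a lower level, Meg3 stood at the 39.8th to 74.7th percentile and Zdbf2 at the 19.7th to 24.5th in the 6 samples. The tile most like Meg3 over the 6 pups, with a mean absolute difference of 1.17 points, was on chromosome 1 at 133026001 to 133027000. The tiles most like the others were 2:166881001 to 166882000 for H19 (3.52 points), 14:55685001 to 55686000 for Rasgrf1 (2.95 points) and 8:125944001 to 125945000 for Zdbf2 (4.26 points). The next most alike were 11:95831001 to 95832000 for Meg3 (1.2 points), 11:69880001 to 69881000 for H19 (3.82), 16:94471001 to 94472000 for Rasgrf1 (3.64) and 5:147936001 to 147937000 for Zdbf2 (4.45). They were found among 14297 tiles with at least 20 CpGs and 30 calls per sample.

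The paternal windows were then set beside control regions that are methylated in oocytes, at Peg10, Mest, Peg3, Snrpn, Kcnq1ot1, Plagl1, Grb10, Zrsr1 and Igf2r, which have more CpGs (12 to 35.6 per kb, against 4.78 to 8.80). Pooled over these 9 windows, the level was 6.51% ± 1.37 for the wild types, 3.83% ± 1.68 for the heterozygotes and 7.02% ± 2.51 for the Tex15KO pups. Pooled over the 4 paternal windows the levels were 77.8% ± 4.92, 81.2% ± 1.74 and 81.8% ± 10.2. The last value joins 89.0% in Tex15KO 3, which read fewer cytosines, with 74.5% in Tex15KO 16, while single controls had 74.3 to 82.5%. In 5 pups the lowest paternal window, at 60 to 69.2%, lay above the highest maternal one, at 4.91 to 17.8%. No test was made between the lists.

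Tex15KO 3 was the exception, with Plagl1, a zinc finger gene that slows growth, at 68.2% of 63 calls over 12 cytosines, above Zdbf2 at 64.8%. Over the whole Plagl1 window Tex15KO 16 had 5.98% and the controls 4.59 to 13.9%. At the 11 Plagl1 cytosines with a call in all 6 pups, Tex15KO 3 had 86.0% of 50 calls and Tex15KO 16 44.4% of 27. The controls had 8.33 to 19.7% there, on 12 to 61 calls. The two-sided exact permutation test over pups gave p = 0.133, the smallest that 2 against 4 can give. Plagl1 was singled out after its values were seen. By the same measure Tex15KO lay above the controls in Peg3 and Zrsr1 too, with the same p, and overlapped them in the other maternal windows with values. At Plagl1 cytosines with 5 or more calls, Tex15KO 3 had 25.9% and Tex15KO 16 2.19%, against 0 to 17.9% in the controls. Snrpn had 0 calls in Tex15KO 3. Leaving this pup out, every maternal window lay at or below 17.8% and every paternal window at or above 60%. High paternal and low maternal windows are what the labelled cell type, male germ cells, is known to have.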

How the data were processed

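The authors deposited 1 table of counts with, per the file headers, the coverage and the C and T calls at each CpG cytosine. BSMAP, Bismark and methylKit served on build mm9, per the submitters' processing notes. How duplicates, conversion rates and filters were handled is not given in the sources used here. The summed calls of each genotype reached 3 or more at all cytosines, which selects cytosines by depth. Samples were grouped by the genotype label, each pup being 1 sample.

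A window's level is the sum of its C calls over the sum of all its calls. The 4 windows, and those of 9 maternally methylated regions placed from general knowledge, were added as rows to 330110 tiles of 1 kb that had 3 or more CpGs and 10 or more calls in every sample. EdgeR 4.0.16 (R 4.3.3, glmQLFit and glmQLFTest) fitted the methylated and unmethylated counts of all samples together, each sample having its own intercept. P-values were adjusted over all rows by Benjamini-Hochberg and called at 0.05. Because edgeR's prior degrees of freedom came out infinite, all tiles shared 1 spread, and a p does not measure how far pups differ at 1 window. Differences between pups were tested by two-sided exact permutation, which doubles the smaller tail. Its smallest p is 0.333 for 2 against 2 and 0.133 for 2 against 4, so that 0.05 cannot be reached. Alternatives were limma 3.58.1 (log2 ratios, pseudocount 1), Fisher's exact test, other windows, other call minimums and 1 pup left out. The fits were also run on simulated calls, with a spread between pups that was set and not estimated from these data. That run therefore does not tell what the fits can detect here. The text names, of the fitted tiles in each window, any called one and those with the highest and lowest mean in the controls, and the 2 tiles elsewhere that are most like each window.

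RefSeq promoters were placed by matching the distances between their CpGs to positions in the table, with 6 or more matched CpGs and 2 or more beyond the next best place. Members, lists and windows were chosen with earlier results of these data known.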

Additional observations from a re-analysis of the deposited data

How the results depend on the processing

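Of 257 alternative values, 214 kept the direction and side of the threshold or moved by less than the spread between pups. Of the rest, 26 reversed, 12 moved and 5 became calls, and the cause was not tested. Some settings could not change a value, so the 214 do not measure stability. Leaving out a heterozygous pup, for example, cannot move a window difference between Tex15KO and Tex15WT, nor can another call minimum for tiles. The 214 also hold changes of sign, as in Rasgrf1 at 5 or more calls (-6.33 points, Tex15KO minus Tex15WT). For Tex15KO minus Tex15WT, Fisher's test on pooled calls gave 16.6 points in H19 (adjusted p 0.000639) and -1.40 in Rasgrf1, and called 2 tiles of the 10 (9.95% of all tiles). Cytosines read in all 6 pups gave 7.95 points in Meg3, windows widened by 1 kb gave 2.20 in Zdbf2, and cytosines with at least 5 calls gave 11.97 in Zdbf2. For Tex15KO minus Tex15HT, H19 was -7.61 points as a mean over cytosines and -18.75 at cytosines read in all pups, where Zdbf2 was 2.00. Fisher's test gave 0.497 in Meg3 and -2.00 in Rasgrf1, widened windows 1.26 in Meg3 and 0.486 in Zdbf2, and at least 5 calls -4.60 in Meg3. For Tex15HT minus Tex15WT, Fisher's test gave 17.6 points in H19 (adjusted p 0.0253) and 0.603 in Rasgrf1, and called 1 tile of the 10 (0.583% of all tiles). Rasgrf1 was 0.546 with widened and 2.01 with shortened windows. At least 5 calls gave 8.16 in Meg3, -17.4 in Rasgrf1 and 17.9 in Zdbf2, and no value for H19 in Tex15WT. Limma called no tile of the windows.

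With 1 pup left out, Tex15KO minus Tex15WT ran from -3.04 to 34.7 points in H19, -11.96 to 18.99 in Rasgrf1 and -3.94 to 0.773 in Zdbf2, with 0 to 1 tiles called. Tex15KO minus Tex15HT ran from -5.27 to 5.26 in H19, -3.32 to 2.31 in Meg3 and -11.9 to 19.1 in Rasgrf1. Tex15HT minus Tex15WT ran from -3.04 to 34.7 in H19, -8.23 to 8.02 in Rasgrf1 and -0.187 to 5.11 in Zdbf2. Tex15KO minus the controls ran from -1.02 to 12.3 in H19, -0.907 to 4.63 in Meg3 and -11.9 to 19.1 in Rasgrf1 (adjusted p 0.0186 without Tex15KO 16). A lone pup of a group was assumed to vary like the others.

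No paired analysis was possible because the labels do not say which pups of the 3 genotypes were littermates. Limits are the 2 pups per group and the few shared cytosines: 2 to 12 per window had a call in all 6 pups, and 9 to 46 in the 5 pups other than Tex15KO 3.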
